A study of Mus musculus with 12 samples.

Results

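The sodium pump genes described here were the β subunits Atp1b1 and Atp1b3 and the FXYD regulators Fxyd1, Fxyd2, Fxyd4 and Fxyd5. These 6 genes were chosen by symbol from the 23378 genes of a count table for cells sorted from mouse kidney cortex, and all 6 were found in it. A filter on low counts left 14180 genes for testing, 5 of the members among them. Fxyd1 fell below the filter and is given as counts only.

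Sodium-potassium ATPase, the sodium pump, sits in the basolateral membrane of tubule cells and moves sodium out of the cell in exchange for potassium. Its α subunit carries out transport, its glycosylated β subunit is needed for folding and for delivery to the membrane, and small FXYD proteins bind the pump and change its affinity for ions. In the kidney the pump drives sodium reabsorption, and FXYD2, the pump's γ subunit, is known from the thick ascending limb and other cortical segments, while FXYD4, also called CHIF, is known from the collecting duct.

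The mice were C57BL/6 animals of the nNosCreERT2-mTmG line, in which a tamoxifen-inducible Cre under the neuronal nitric oxide synthase gene turns a membrane reporter from red tdTomato to green GFP, and all groups carried both alleles. The sort took green cells as macula densa, the salt-sensing plaque of the distal thick ascending limb beside the glomerulus, and the reddest cells as controls intended to represent distal tubule and collecting duct. For 14 days the animals had control diet, or a diet low in salt together with enalapril, an inhibitor of angiotensin-converting enzyme, at 150 mg/L in drinking water. The second regimen is called low salt below, and ages were not given in the sources used here. Each diet had 2 macula densa and 4 control-cell libraries. In the descriptions, each macula densa library shares a number with 1 control-cell library, which may be the animal, but the labels do not say so. Therefore the p-values below measure the spread between libraries, which may be partly technical.

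Total counts ranged from 4259020 to 14856542 per library, of which 53.5% to 65.0% fell on Gm42418, a gene lying over ribosomal RNA sequence. Levels are given as CPM, the usual rescaling of a gene's counts by its library's TMM-scaled total, and 3 counts corresponded to 0.231 to 0.734 CPM. The macula densa libraries held 100.4 to 232 CPM of Nos1 and the control cells 0.109 to 0.734 CPM. Of 6 macula densa markers 5 were higher in the macula densa libraries averaged over both diets. Markers of the distal convoluted and connecting tubule, part of what the control cells were meant to hold, summed to 933 CPM in replicate 4 of the control diet and to 108 to 222 CPM in the other 7 control-cell libraries. The control-cell libraries were not uniform: podocyte and endothelium markers summed to 1690 to 3178 CPM in 5 of them but to 96.4 CPM in replicate 4 of the control diet and to 524 and 508 CPM in replicates 1 and 3 of low salt. In the macula densa libraries this sum was 370 CPM in replicate 1 of the control diet and 47.1 to 67.8 CPM in the others. No podocyte or endothelium marker was at 0 in every library of any group. Mitochondrial transcripts took 6.88% to 14.1% of counts in macula densa libraries, 9.98% in control-cell replicate 4 of the control diet and 3.48% to 5.45% in the other 7 control-cell libraries, and their part in the results below was not tested.

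The genes of the 2 β subunits are shown with the sequence before their starts, because the pair serves the same role in the pump and stood far apart in level. Both lie on the minus strand, Atp1b1 at chr1:164437109-164458355 and Atp1b3 at chr9:96332655-96364442 (GRCm38, GENCODE M21). RefSeq's promoter table (GRCm38.p6) held 5 of the 6 members and lacked Fxyd2. The stretch before the annotated start was searched on both strands for the GC box GGGCGG, the TATA box TATAAA, the steroid receptor half-site TGTTCT and the HNF1 half-site GTTAAT, which do not overlap one another. Capitals mark GC boxes in either orientation in the sequences before the starts of Atp1b1 (chr1:164458356-164458605) and Atp1b3 (chr9:96364443-96364681), written 5′ to 3′ on the gene's strand.
Atp1b1: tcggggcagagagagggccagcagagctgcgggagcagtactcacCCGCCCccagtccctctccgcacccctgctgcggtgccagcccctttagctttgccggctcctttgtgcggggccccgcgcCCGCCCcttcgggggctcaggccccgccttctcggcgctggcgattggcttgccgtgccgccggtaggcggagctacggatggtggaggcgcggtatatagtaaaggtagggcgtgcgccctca
Atp1b3: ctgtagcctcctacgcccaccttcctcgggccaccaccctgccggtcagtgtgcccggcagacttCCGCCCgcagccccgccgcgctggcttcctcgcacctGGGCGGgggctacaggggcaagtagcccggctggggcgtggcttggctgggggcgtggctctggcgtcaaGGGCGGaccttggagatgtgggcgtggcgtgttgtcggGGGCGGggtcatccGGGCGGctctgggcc
The Atp1b1 stretch of 250 bases was 70.4% GC and held 2 GC boxes, both on the opposite strand. The Atp1b3 stretch of 239 bases was 73.6% GC and held 5, of which 4 were on the gene's own strand. Another start listed for Atp1b3 has a window of 250 bases inside the annotated gene (chr9:96363716-96363965), which is not printed. That window was 76.8% GC and held none of the 4 motifs, so the count of GC boxes depends on the start taken. Among all 32851 promoters in the table, 32.7% held a GC box in the 250 bases before the start, 12.4% a TATA box, 16.1% the steroid receptor half-site and 6.43% the HNF1 half-site, and the median GC content was 52.4%. Fxyd4 held 1 GC box and Fxyd1 and Fxyd5 held none of the 4 motifs, at 58.0%, 57.2% and 55.6% GC. The windows of Fxyd4 and Fxyd5 reach into annotated exons and are not printed. These matches describe letters only.

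Atp1b1, the β1 subunit, the main β subunit of kidney tubules, had the highest level per kilobase of exon of the 6 genes in every library. On control diet it measured 576 and 571 CPM in the macula densa libraries and 126, 214, 297 and 664 CPM in the control-cell libraries. On low salt it measured 693 and 714 CPM in macula densa cells and 493, 238, 502 and 306 CPM in control cells. The macula densa libraries lay close together, with the highest 1.25 times the lowest, while control-cell libraries spanned 5.28-fold. Control-cell replicate 4 on control diet lay above both macula densa libraries of that diet, so the cell populations overlapped there. They did not on low salt, where 34.8% of all genes tested did not overlap either. Ordered by mean, macula densa cells on low salt came first at 704 ± 14.7 CPM (SD, n = 2), then macula densa cells on control diet at 573 ± 4.02 (SD, n = 2), control cells on low salt at 385 ± 133 (SD, n = 4) and control cells on control diet at 325 ± 236 (SD, n = 4). The ranges of the control-cell groups overlapped.

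Atp1b1 did not pass the test between cell populations. As macula densa over control cells, the log2 fold change averaged over both diets was 0.84 (SE 0.36), edgeR adjusted p 0.114. It was 0.82 on control diet and 0.87 on low salt, with adjusted p-values of 0.355 and 0.301. Without control-cell replicate 4 on control diet, the averaged value was 1.15 with an edgeR adjusted p of 0.00492 and the value on control diet 1.43 with 0.0197. That library had the fewest podocyte and endothelium markers of the control cells and a mitochondrial share of 9.98%. Scaling by library totals alone also gave a call, with 1.07 and an edgeR adjusted p of 0.0352. So did a block by the number in the descriptions, with 1.28 and 0.000164, and on each diet with 0.00416 and 0.00189. That block leaves control-cell libraries without a shared number out of the comparison. Those left out include all 3 with few podocyte and endothelium markers, and those compared held 214 to 306 CPM of Atp1b1. Whether pairing or the loss of these libraries gave the calls with this block, here and for other members, was not tested. Within the control cells, the 3 libraries with few podocyte and endothelium markers held 493 to 664 CPM of Atp1b1 and the other 5 held 126 to 306 CPM. The part of these other cells in the Atp1b1 result was not tested. In sorted bulk RNA, fewer cells of a type and less RNA per cell cannot be told apart. Atp1b1 overlaps Nme7 on the opposite strand by 617 bases, and Nme7 measured only 1.74 to 8.04 CPM.

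**Figure D1:**
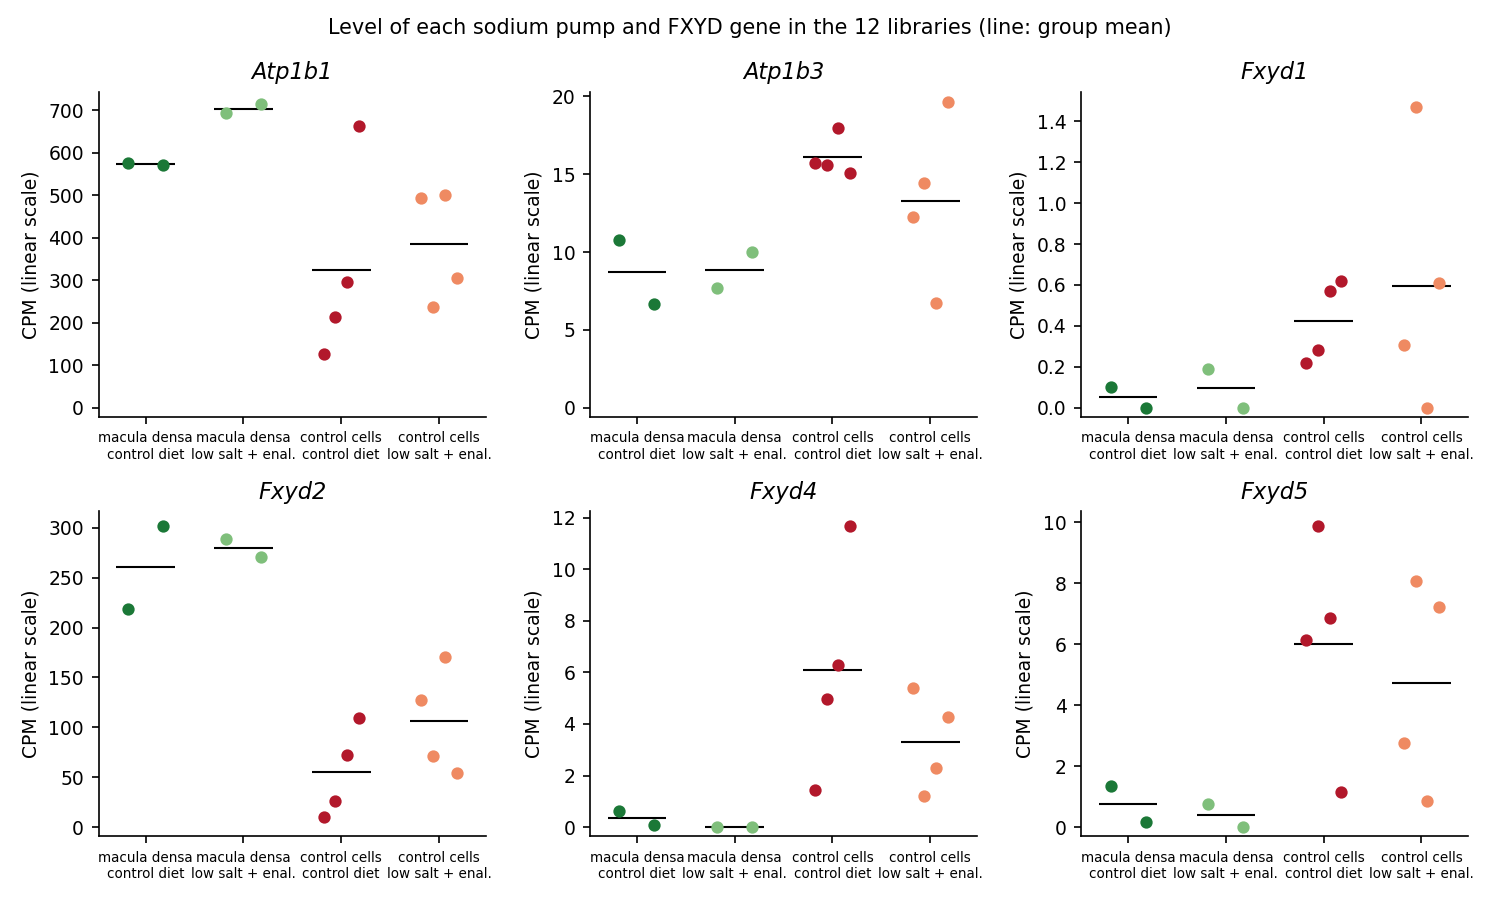
Each panel plots 1 of the 6 genes: the y axis is CPM on a linear scale, the x axis the 4 groups, each point a library and each line a group mean. Fxyd2 is above and Fxyd4 below the control cells in all 4 macula densa libraries, whereas control-cell replicate 4 on control diet reaches the macula densa level of Atp1b1 at 664 CPM.

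Atp1b3, the β3 subunit, found in many cell types, was far scarcer per kilobase, and its mean was lower in macula densa cells. It measured 10.8 and 6.68 CPM in macula densa cells on control diet and 7.66 and 10.01 CPM on low salt. In control cells it measured 15.7, 15.6, 17.9985 and 15.1 CPM on control diet and 12.2, 14.4, 6.72 and 19.6 CPM on low salt. On control diet all control-cell libraries lay above both macula densa libraries, in a comparison where 31.9% of all genes tested did not overlap. On low salt control-cell replicate 3 lay below both macula densa libraries. The log2 fold change averaged over both diets was -0.74 (SE 0.25), and the edgeR adjusted p of 0.0550 missed the threshold of 0.05. Without control-cell replicate 3 on low salt it was -0.84 with 0.0123, and without control-cell replicate 4 on control diet -0.76 with 0.0457. Without macula densa replicate 1 on control diet it was -0.94 with 0.0496. Both control-cell libraries named here are among the 3 control-cell libraries with few podocyte and endothelium markers, which held 6.72 to 15.1 CPM of Atp1b3 against 14.4 to 19.6 CPM in the other 5, and the part of those cells was not tested. A DESeq2 Wald test gave an adjusted p of 0.0302. With a block by the number in the descriptions, edgeR gave -0.96 with an adjusted p of 0.00522. The deposited values of Atp1b3 were not whole by more than 0.2 in 6 of 12 libraries, so its counts are uncertain.

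Fxyd2, the γ subunit, was the member most enriched in macula densa cells. The gene lies on the plus strand at chr9:45399669-45410278. It measured 219 and 302 CPM in macula densa cells on control diet and 289 and 271 CPM on low salt. In control cells it measured 10.5, 26.4, 72.5 and 110 CPM on control diet and 128, 71.5, 171 and 54.4 CPM on low salt. The lowest macula densa library lay above the highest control-cell library. By mean the order was 280 ± 12.8 (SD, n = 2) and 260 ± 58.9 CPM (SD, n = 2) for macula densa on low salt and control diet, which overlapped, then 106 ± 53.2 (SD, n = 4) and 54.8 ± 45.1 CPM (SD, n = 4) in control cells on the same diets, which overlapped too.

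Averaged over both diets, Fxyd2 was higher in macula densa cells by 1.82 on the log2 scale (SE 0.47), edgeR adjusted p 0.0178, which is a 3.54-fold difference with a 95% interval of 1.73 to 7.25. On control diet alone the log2 fold change was 2.25 with an adjusted p of 0.0660, and on low salt it was 1.40 with 0.216. The averaged call was lost without macula densa replicate 2 on control diet (adjusted p 0.0753), replicate 1 on low salt (0.0530) or replicate 2 on low salt (0.0588). On control diet a call was gained without control-cell replicate 4, at 2.83 with an edgeR adjusted p of 0.0107, and with library totals alone (0.0366). The DESeq2 Wald test (0.0172) and edgeR with a block by the number in the descriptions (0.000225) gained it too. That block also gave a call on low salt, at 2.17 with 0.000398. Among control cells, the 3 libraries with few podocyte and endothelium markers held 109.8 to 171 CPM of Fxyd2 and the other 5 held 10.5 to 72.5 CPM. Of 10 thick ascending limb markers 7 were higher in macula densa cells averaged over both diets, and Umod, Egf and Kcnj1 did not pass. The list summed to 2595 to 4489 CPM there and 220 to 1720 CPM in control cells. Slc12a1, which is on the macula densa list too, held 1769 to 2026 CPM of this in macula densa libraries and 41.8 to 430 CPM in control cells. The part of podocyte, endothelium and thick ascending limb cells in the Fxyd2 result was not tested.

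**Figure D2:**
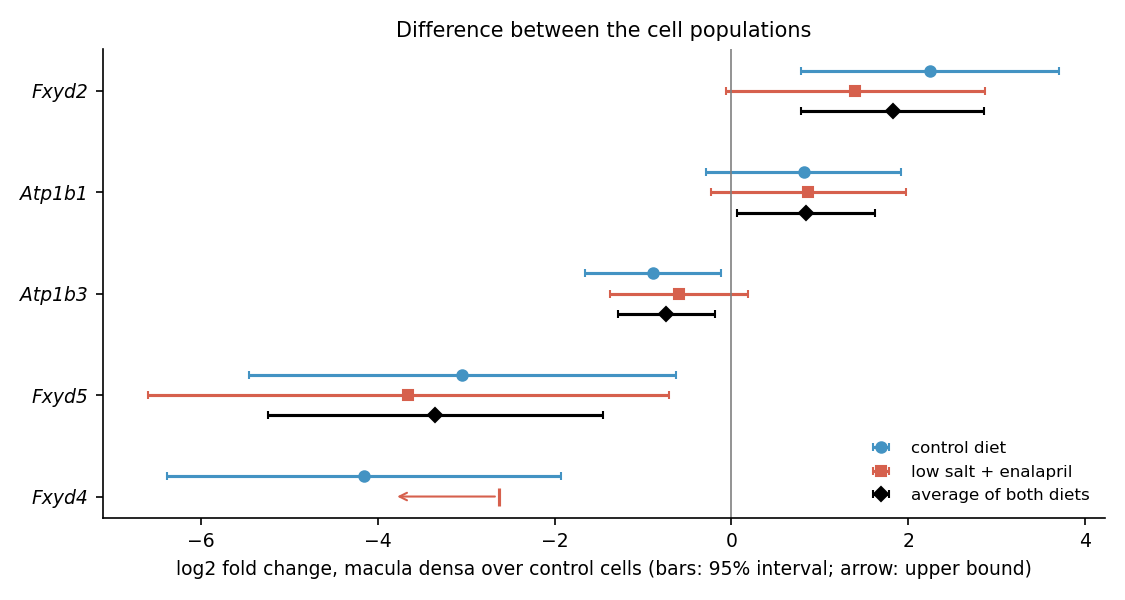
The x axis is the log2 fold change of macula densa over control cells from the edgeR fit, with bars for 95% intervals. Colours and symbols give control diet, low salt and the average of both, the arrow marks the Fxyd4 upper bound (at least 6.18-fold lower) from libraries at 0, and no averaged value is drawn for Fxyd4. The averaged intervals of Atp1b1 and Fxyd2 lie above 0 and those of Atp1b3 and Fxyd5 below 0, before adjustment over all genes, after which Fxyd2 and Fxyd5 of these 4 passed.

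Fxyd4, which raises the pump's affinity for sodium, was nearly undetected in macula densa cells. The gene lies on the minus strand at chr6:117933559-117937692. Macula densa libraries held 6 and 1 counts on control diet and 0 counts in both libraries on low salt. The 6 counts were in replicate 1, the macula densa library with the most podocyte and endothelium markers, and the part of those cells was not tested. Control cells held 13, 53, 66 and 113 counts on control diet, or 1.42, 4.98, 6.29 and 11.7 CPM. On low salt they held 70, 5, 11 and 42 counts, or 5.38, 1.22, 2.31 and 4.27 CPM. Every macula densa library lay below every control-cell library. The mean on control diet was 0.348 ± 0.378 CPM (SD, n = 2) against 6.09 ± 4.25 CPM (SD, n = 4), a log2 fold change of -4.15 (SE 1.02), edgeR adjusted p 0.0363. On low salt, relative to a floor of 3 counts per library, Fxyd4 was at least 6.18-fold lower in macula densa cells, with an edgeR adjusted p of 0.0359. Averaged over both diets the adjusted p was 0.00304, and it was at most 0.0197 in all 19 alternatives that gave a value. On a single diet the call was less secure, with adjusted p-values up to 0.275 on control diet, without macula densa replicate 2, and up to 0.195 on low salt, again without its macula densa replicate 2. The control diet call was also lost without macula densa replicate 1 or control-cell replicate 2 or 3 of that diet, or control-cell replicate 4 of low salt. The low salt call was also lost without macula densa replicate 1 or control-cell replicate 1 or 4 of low salt, or control-cell replicate 3 of the control diet.

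Principal cells of the collecting duct are the cells in which Fxyd4 is best known, and their markers followed it only in part. Of 10 such markers 9 were lower and 1, Tfcp2l1, was higher in macula densa cells averaged over both diets. The full list summed to 353 to 530 CPM in macula densa libraries and to 258 to 1543 CPM in control cells, which overlapped. Tfcp2l1 was set apart after its values were seen, and the separation that follows rests on leaving it out. Without it, the other 9 summed to 15.7 to 67.0 CPM in macula densa libraries and to 128 to 1117 CPM in control cells. On control diet these sums were 351, 502, 673 and 1117 CPM in control-cell replicates 1 to 4, the same order as Fxyd4. On low salt they were 429, 352, 128 and 433 CPM, and the order differed from that of Fxyd4, which was lowest in replicate 2 and highest in replicate 1. The part of these cells in the Fxyd4 result was not tested.

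Fxyd5, also called dysadherin, a regulator known for effects on cell adhesion as well as on the pump, was likewise scarce. The gene lies on the minus strand at chr7:31032722-31042481. Macula densa libraries held 13 and 2 counts on control diet and 4 and 0 on low salt. The 13 counts were in replicate 1, which held 370 CPM of podocyte and endothelium markers against 47.1 to 67.8 CPM in the other macula densa libraries. In control cells Fxyd5 measured 6.12, 9.87, 6.86 and 1.14 CPM on control diet and 2.77, 8.08, 0.840 and 7.22 CPM on low salt. Control-cell replicate 4 on control diet lay inside the macula densa range of 0 to 1.33 CPM, and so did replicate 3 on low salt. The upper end of that range was the same macula densa replicate 1, and the next highest macula densa library held 0.766 CPM, below both. Fxyd5 was lower in macula densa cells averaged over both diets, by a log2 fold change of -3.35 (SE 0.87), edgeR adjusted p 0.0178. By diet the values were -3.04 with an adjusted p of 0.117 and -3.65 with 0.118. The size is poorly fixed at these counts: with 1 library left out, the averaged value lay between -5.70 and -2.80, the ends being those without replicates 1 and 2 of the macula densa on low salt. The low salt value was -8.40 and -2.61 without the same libraries, and the control diet value was -5.06 and -2.10 without macula densa replicate 1 or 2 of that diet. The averaged call was lost without macula densa replicate 2 on control diet (edgeR adjusted p 0.0699) or without replicate 2 on low salt (0.0786). A block by the number in the titles lost it too (0.0553). On control diet a call was gained without control-cell replicate 4 (edgeR adjusted p 0.0275) and with a block by the number in the descriptions (0.00498). The DESeq2 Wald test gained it as well (0.0323). On low salt that block (0.00641) and the Wald test (0.0248) also gave a call. The 3 control-cell libraries with few podocyte and endothelium markers held 0.840 to 2.77 CPM of Fxyd5, and the other 5 held 6.12 to 9.87 CPM. All 8 endothelium markers and 6 of 8 podocyte markers were lower in macula densa cells averaged over both diets. So were 7 of 8 smooth muscle and mesangium markers, which summed to 13.9 to 59.2 CPM in macula densa cells and 131 to 492 CPM in control cells, and 4 of 5 leukocyte markers tested, at 2.46 to 7.90 and 3.57 to 146 CPM. The part of all these cells in the Fxyd5 result was not tested.

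**Figure D3:**
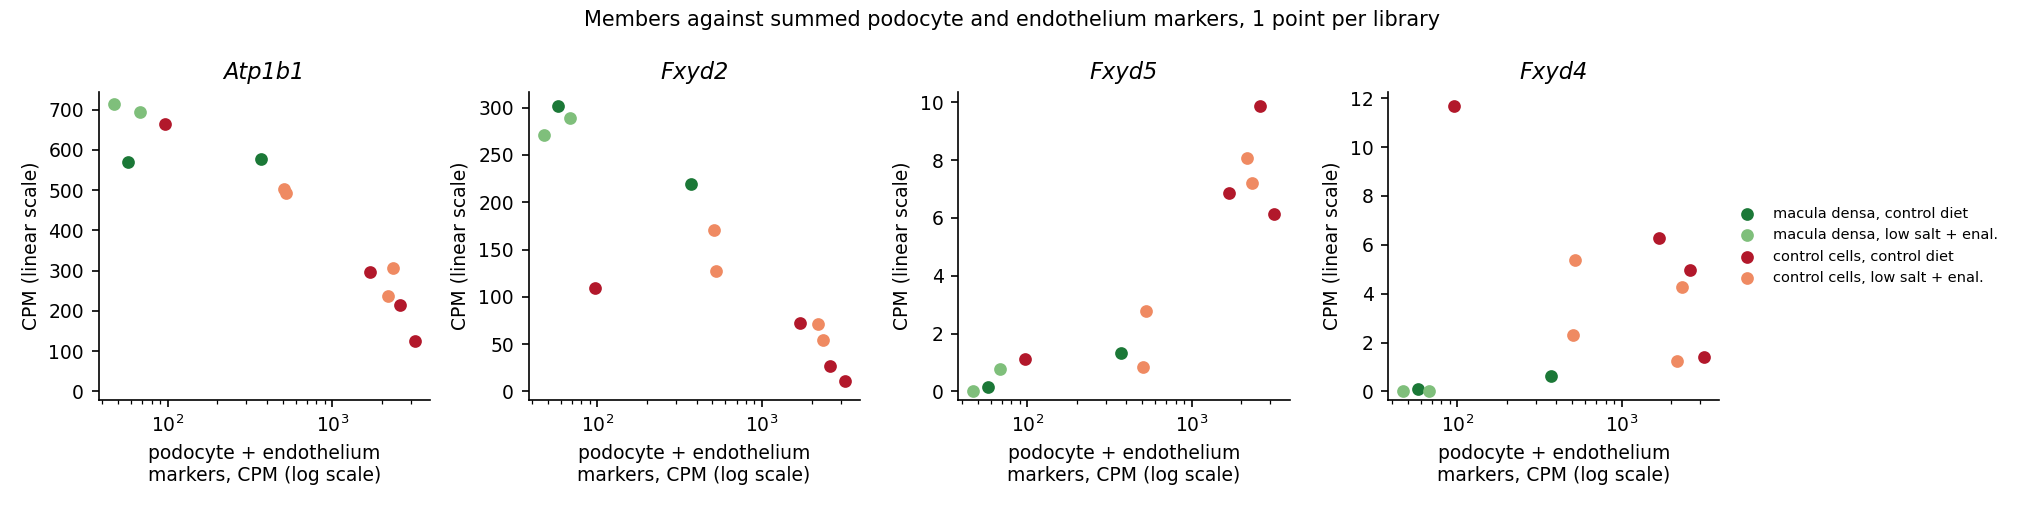
The x axis is the summed CPM of 16 podocyte and endothelium markers on a log scale, the y axis the CPM of each gene on a linear scale, and each point is 1 of the 12 libraries coloured by group. Control-cell libraries with few of these markers have more Atp1b1 and Fxyd2 and less Fxyd5, while Fxyd4 was highest, at 11.7 CPM, in the control-cell library with the lowest marker sum.

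Fxyd1, also called phospholemman, the regulator best known from heart and muscle, was barely detected. The gene lies on the minus strand at chr7:31051678-31057199. It had 1, 0, 1 and 0 counts in the macula densa libraries. Control cells had 2, 3, 6 and 6 counts on control diet and 4, 6, 0 and 6 on low salt. Summed over libraries this was 2 counts in macula densa cells and 33 in control cells, too few for a test.

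In all, 1 of 5 members tested passed on control diet, where 6.61% of all genes did, and 1 on low salt, where 7.27% did. Fxyd4, lower in macula densa cells, was the member called in both. Averaged over both diets 3 of 5 passed, against 21.3% of all genes: Fxyd2 higher, Fxyd4 and Fxyd5 lower. Over all 12 libraries the cell populations did not overlap for Fxyd2 and Fxyd4, 2 of 5 members, as for 9.58% of genes tested. The comparisons on each diet and their average share libraries, so they are not separate evidence.

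Diet moved no member past the threshold. In macula densa cells 0 of 5 members passed the edgeR test, as did 0.0% of all genes, and in control cells 0 of 5 passed, against 0.00705% of all genes. An unadjusted p under 0.05 was reached by 0 members in either, and by 1594 and 914 of 14180 genes. The DESeq2 Wald test called 0 members, and 93 and 74 genes. With only the groups compared, edgeR called 105 and 0 genes. Among values that could be estimated, Atp1b1 had a log2 fold change of 0.30 in macula densa cells, low salt over control diet, with a 95% interval of -1.01 to 1.60. Both treated macula densa libraries lay above both untreated ones, and 40.6% of all genes tested did not overlap either in this comparison of 2 against 2. In control cells the value was 0.24, with an interval of -0.68 to 1.17. For Fxyd2 these were 0.10 (-1.65 to 1.85) in macula densa cells and 0.95 (-0.30 to 2.21) in control cells. Atp1b3 had 0.02 (-0.86 to 0.91) and -0.27 (-0.88 to 0.33). The intervals are wide enough to hold changes of more than 1.5-fold either way in macula densa cells. In control cells Fxyd4 had -0.81 (-2.16 to 0.53) and Fxyd5 -0.35 (-1.95 to 1.24), and in macula densa cells both had too few counts for a fold. The interaction of diet and population was past the threshold for 0 of 5 members and 0.0% of genes, with 0 members and 997 genes at an unadjusted p under 0.05. DESeq2 called 0 members and 13 genes.

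**Figure D4:**
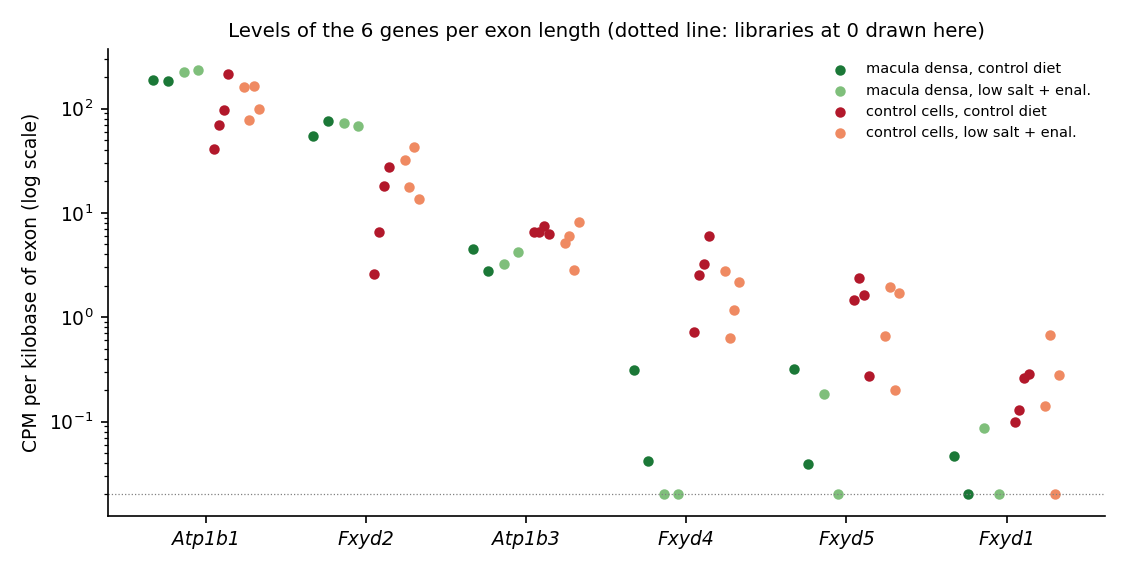
The y axis is CPM per kilobase of exon on a log scale and the x axis the 6 genes, with 1 point per library coloured by group. Libraries at 0 are drawn on the dotted line, and Atp1b1 and Fxyd2 stand above the other 4 genes in macula densa libraries.

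To compare levels between genes, CPM was divided by the union of annotated exons, which overstates the length of a transcript where a gene has many isoforms. In macula densa libraries the mean level per kilobase was 207 for Atp1b1, 67.5 for Fxyd2, 3.68 for Atp1b3, 0.135 for Fxyd5, 0.0890 for Fxyd4 and 0.0336 for Fxyd1 (n = 4). In control cells it was 115, 20.1, 6.14, 1.28, 2.40 and 0.233 in the same order of genes (n = 8). Fxyd5 stood above Fxyd4 in macula densa cells and below it in control cells, in each case by less than the SD of Fxyd4 (0.152 and 1.73). Ratios of counts within a library need no scaling. Those given here were chosen after the values were seen, and no share over other ratios is given beside them. Fxyd2 counts per Atp1b1 count were 0.379 to 0.529 in macula densa libraries and 0.0835 to 0.340 in control cells, without overlap. Fxyd4 counts per Fxyd2 count were 0 to 0.00281 in macula densa libraries. In control cells they were 0.0867 to 0.189 on control diet and 0.0135 to 0.0785 on low salt, without overlap, and this difference was not tested. In CPM neither Fxyd4 nor Fxyd2 separated the diets in control cells, where 4.2% of genes tested did. Atp1b1 counts per Atp1b3 count were 53.5 to 90.5 in macula densa libraries and 7.99 to 74.7 in control cells, which overlapped.

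**Figure D5:**
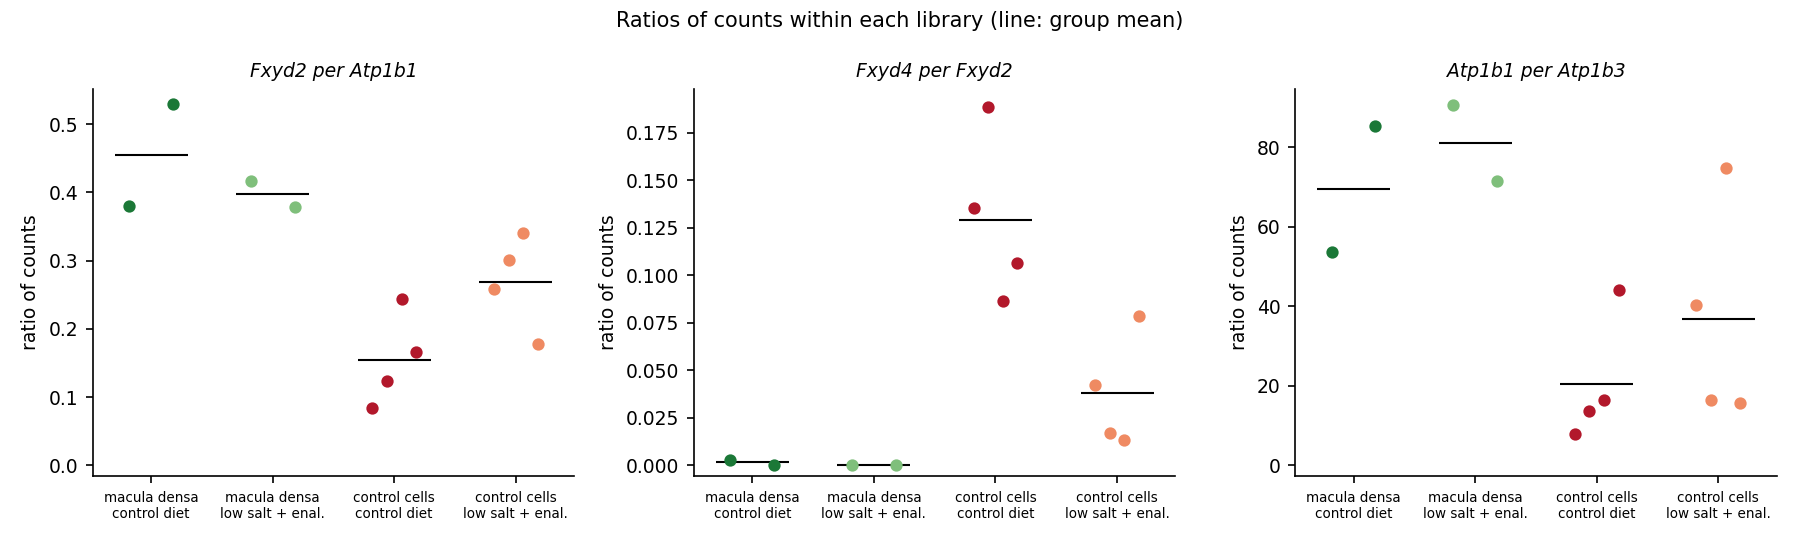
The y axes are ratios of counts within a library, the x axis the 4 groups, with 1 point per library and a line at the group mean. Fxyd2 per Atp1b1 separates the macula densa libraries (at least 0.379) from the control cells (at most 0.340), while Atp1b1 per Atp1b3 does not, and Fxyd4 per Fxyd2 is at most 0.00281 in the macula densa libraries.

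Other pump and FXYD genes were read from a family list chosen with the members. Atp1b2, the β2 subunit, known mainly from nervous tissue, measured 4.56 to 8.43 CPM in macula densa cells and 2.79 to 14.7 CPM in control cells, with an averaged log2 fold change of -0.74 (SE 0.35), edgeR adjusted p 0.157. Fxyd6, another FXYD regulator, measured 0.192 to 0.656 and 0 to 5.07 CPM, with -1.37 (SE 0.77) and an adjusted p of 0.231. Atp4a, the α subunit of the gastric proton pump, which is related to the sodium pump, measured 29.4 to 47.6 and 5.69 to 70.5 CPM, with 0.43 (SE 0.52) and an adjusted p of 0.609. The populations overlapped for each of these 3 genes, and none of the 3 passed. Fxyd3, Fxyd7 and Atp4b were looked up by symbol and were absent from the count table, so they have no values here.

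Genes that anchor or regulate the pump were read from a second list. Of its 12 genes tested, averaged over both diets, 1 was higher and 3 were lower in macula densa cells, and 8 did not pass. Of all genes tested 21.3% passed in this comparison. Ank3, ankyrin G, which links membrane proteins to the spectrin skeleton, measured 119 ± 17.9 CPM (SD, n = 2) and 131 ± 9.39 CPM (SD, n = 2) among macula densa libraries on control diet and low salt, against 47.4 ± 26.6 and 48.1 ± 12.9 CPM (SD, n = 4 each) in control cells. Its averaged log2 fold change was 1.39 with an edgeR adjusted p of 0.00520. Sgk1, the aldosterone-induced kinase, measured 0 to 9.64 CPM in macula densa cells and 6.30 to 74.8 CPM in control cells. It was lower in macula densa cells, at -4.17 with an adjusted p of 0.00336. Ank3 and Sgk1 passed in all 20 alternatives at 0.05. Sptan1, α spectrin, was lower at -0.48 with an adjusted p of 0.0485, and it passed in only 5 of 20 alternatives. On a single diet Ank3 and Sgk1 passed on low salt. None of these 3 genes passed between the diets in either cell population.

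For each member tested, the 3 genes most like it over the 12 libraries were found as the smallest root mean square difference in centred log2 CPM among 6685 genes with a mean of at least 5 CPM. For Atp1b1 these were Cdh1, the epithelial E-cadherin, at 0.138, Cds1 at 0.139 and Itgb6 at 0.155, where Atp1b1 itself had a standard deviation of 0.768. Of those for Fxyd2, Car15 stood at 0.238 and Kng2 at 0.329, where Fxyd2 had a standard deviation of 1.42. For Fxyd4 they were Aqp3, a basolateral water channel of the collecting duct, at 0.349, Aqp1 at 0.501 and Kif26b at 0.595, against 1.90. For Fxyd5 they were Fat4 at 0.444, Jag2 at 0.459 and Arhgap28 at 0.459, against 1.76. Atp1b3 came closest to Tspan9 at 0.257, Ssbp4 at 0.263 and Tbc1d4 at 0.264, against 0.510. Between members the closest pair was Atp1b1 and Fxyd2 at 0.749, and the most distant was Fxyd2 and Fxyd5 at 3.02.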

How the data were processed

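Sorted macula densa and control cells were profiled by RNA sequencing with a stranded total-RNA kit for low input, all libraries prepared at the same time, per the labels' protocols. The submitters' processing notes name STAR 2.61, Partek and the build mm10. The counting tool and its use of strand are not given in the sources used here, so counts of overlapping genes are uncertain. The authors deposited estimated counts per gene, of which 16.1% were not whole, per the values in the file; they were rounded before testing. Groups came from the labels.

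Genes were filtered with filterByExpr (minimum count 10, minimum total 15), scaled by TMM and fitted with the edgeR 4.0.16 quasi-likelihood test in R 4.3.3, with 1 coefficient per group over all 12 libraries. P-values were adjusted by Benjamini-Hochberg over all 14180 genes tested, at 0.05. The fit was tested on simulated data. Alternatives were DESeq2 1.42.0 size factors and its Wald test, library totals alone, other filters, without mitochondrial and ribosomal RNA rows, a threshold of 0.01, fits of the compared groups alone, replicate blocks, and each library left out. The 6 members and the gene lists were chosen with earlier results of these data known. The genes named were the members, genes of both pump lists, and for each member tested the 3 genes most like it. Some genes chosen by this rule are not reported here. The floor of 3 counts covers counting error only. No library was found deposited more than once.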

Additional observations from a re-analysis of the deposited data

How the results depend on the processing

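No direction of a member between the cell populations was turned by any alternative. The 522 alternative values over 26 pairs of member and comparison leave out the threshold of 0.01, which is given below as counts of members. Of the 522, 460 kept their side of the threshold with no change of sign counted, 19 lost a call and 22 gained one. The other 21 changed sign without crossing the threshold, all for diet effects or their interaction with cell population, where no member passed. On control diet, where 1 member was called, 2 were called with library totals alone, 3 with the DESeq2 Wald test, and 0 with a mean of at least 5 CPM (3 members tested: Atp1b1, Atp1b3 and Fxyd2), with only the groups compared or at a threshold of 0.01. With a library left out the count ran from 0 to 4, the latter without control-cell replicate 4, where 2490 genes were called against 938 with all libraries. Without macula densa replicate 2 only 122 genes were called, so the share of all genes called moves with the members. On low salt, with 1 called, the count was 2 with the Wald test, 0 with a mean of at least 5 CPM or at 0.01, and 0 to 1 with a library left out. Averaged over both diets, with 3 called, it was 1 with a mean of at least 5 CPM or at 0.01, and 1 to 5 with a library left out: 1 without macula densa replicate 2 on either diet and 5 without control-cell replicate 4 on control diet. The filter at a mean of 5 CPM left out Fxyd4 and Fxyd5, so its lower counts omit them and say nothing on their calls. For the other alternatives the cause was not tested, except that fewer genes or samples entered some fits.

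Whether the numbers in the labels pair the libraries could not be settled. The descriptions' number may be the animal, but no label says so. Same-numbered libraries had correlations of deviations of 0.23, -0.018, 0.075 and -0.037, and with 2 macula densa libraries per diet the deviations mirror each other, so these values cannot show or refute a pairing. With a replicate block for the number in the descriptions, 5, 4 and 5 members were called on control diet, low salt and their average, among 2292, 2231 and 3683 genes. That block drops the 3 control-cell libraries with few podocyte and endothelium markers, and also replicate 1 of the control diet, which had the highest sum of them at 3178 CPM. Atp1b1 was then 1.28 (edgeR adjusted p 0.000164), higher in macula densa in 4 of 4 pairs. With a block for the number in the titles, 0, 0 and 2 members were called, among 378, 396 and 1908 genes, and Fxyd5 lost its averaged call (0.0553).

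The diet effect of Atp1b3 in macula densa cells was -0.039 with library totals alone, -0.11 with no filter and -0.37 to 0.35 with a library left out, and that of Fxyd2 was -0.025 with no filter and -0.16 to 0.27. In control cells, leaving out a library moved Atp1b1 from -0.0089 to 0.86 and Fxyd5 from -0.70 to 0.017. The difference of diet effects for Atp1b1 was -0.050 with no filter, -0.17 with the replicate block from titles and -0.56 to 0.27 with a library left out, and for Atp1b3 -0.10 to 0.62.

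Over all genes, the averaged comparison called 3027 genes, and 1872 with a mean of at least 5 CPM, 1301 at 0.01, 3714 with the Wald test, 3968 when replicate 4 of the control cells on control diet was left out, and 1680 and 1857 without replicate 2 of the macula densa group on control diet and low salt. Library totals alone gave 1827 higher and 1450 lower against 1061 and 1966, and moved the median of all genes from -0.06 to 0.14. Depth limits Fxyd1, Fxyd4 and Fxyd5 in macula densa cells, where libraries held at most 13 counts of each.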
